A study of Mus musculus with 4 samples.

Results

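The insulin receptor signalling genes described here were 9 genes of 1 pathway, chosen by name: the receptor *Insr*, the adaptors *Irs1* and *Irs2*, the phosphoinositide 3-kinase (PI3K) subunits *Pik3r1* and *Pik3ca*, the kinases *Akt1*, *Akt2* and *Gsk3b*, and the transcription factor *Foxo3*. All 9 were found by symbol among the 35739 genes of the salmon table, and all 9 passed the filter that left 9581 genes to test. Liver RNA came from 2 WT mice, numbered 2 and 3, and from 2 *Usp21* KO mice, numbered 1 and 3, each with a library of its own. The p-values rest on the spread between these mice, which the main fit moderates with the variances of other genes. The study used littermates 10 to 11 weeks old on a normal diet, bred from C57BL/6 mice and carriers of mixed background, since the gene had been targeted in embryonic stem cells of another strain. The KO is constitutive: exons 3 and 4 of *Usp21* were removed by crossing to mice that express Cre recombinase, so no tissue or cell type was singled out. Sex, feeding state and hour of liver collection are not given in the sources used here.

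In the liver, insulin binds its receptor, the receptor phosphorylates IRS adaptors, and these recruit PI3K, which leads to activation of AKT. AKT then phosphorylates GSK3, which releases glycogen synthesis, and FOXO factors, which leave the nucleus, so that genes of glucose production fall after a meal. Part of this control acts on the pathway's own genes: *Irs2* transcription is known to rise in fasting, when FOXO factors and CREB are active, and to fall under insulin.

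Values are TPM, the transcript abundance that salmon estimates with a correction for transcript length, so levels can be set against each other between genes. Genotypes were compared with limma on log2(TPM + 1), and p-values were adjusted by the Benjamini-Hochberg method over all 9581 genes. Between 12876 and 13620 genes were above 0 TPM in a library, the 10 most abundant genes held 25.7% to 30.7% of the TPM, and TPM keeps no record of sequencing depth. The targeted gene *Usp21* was at 4.07 and 6.29 TPM in WT livers but still at 1.64 and 2.93 TPM in KO livers, where the other exons remain in the allele. The 8 hepatocyte markers summed to 54299 to 69541 TPM in WT and 46726 to 55734 TPM in KO, so the sums overlapped. Of these markers, 3 were lower in each KO liver than in either WT liver, against 10.9% of all tested genes. Another 2 were higher in each KO liver than in either WT liver, against 34.4% of all tested genes. An unadjusted p under 0.05 in limma was found for 2 of the 8, against 10.5% of all tested genes. The 4 skeletal muscle markers were at 0 in all 4 libraries. Over all tested genes the log2 fold change had a median of 0.15 (KO minus WT), and 66.7% of them were higher in KO. After scaling with TMM factors, which align the libraries on the bulk of their genes, these values were 0.0082 and 51.0%, and with upper quartile scaling 0.036 and 54.0%, so small differences depend on the scaling.

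With all 4 libraries, the receptor and both adaptors were the members with the largest log2 fold changes. *Irs2*, *Irs1* and *Insr* were higher in both *Usp21* KO livers than in both WT livers, by 3.02-, 2.43- and 1.82-fold in mean TPM. *Foxo3* was also higher in both KO livers, by 1.41-fold, while *Akt1* and *Akt2* were at 0.885 and 0.888 times their WT means. An adjusted p under 0.05 in limma was reached by 0 of the 9 genes (0.464 to 0.770) and by 0.0835% of all tested genes. Of the 9 genes, 3 (*Insr*, *Irs1* and *Irs2*) had an unadjusted p under 0.05 and were higher in KO, compared with 8.45% of all tested genes. *Irs1* and *Irs2* averaged under 1 TPM in WT and passed the filter only through the KO libraries, so this count is no support for a difference. The genotypes did not overlap for 5 members, 4 of them higher in KO (*Insr*, *Irs1*, *Irs2*, *Foxo3*) and 1 lower (*Akt1*), whereas 34.4% of all tested genes were apart in the upward and 10.9% in the downward direction. *Irs1* and *Irs2* are among these 4, so the upward count is no support for a difference either.

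**Figure D1:**
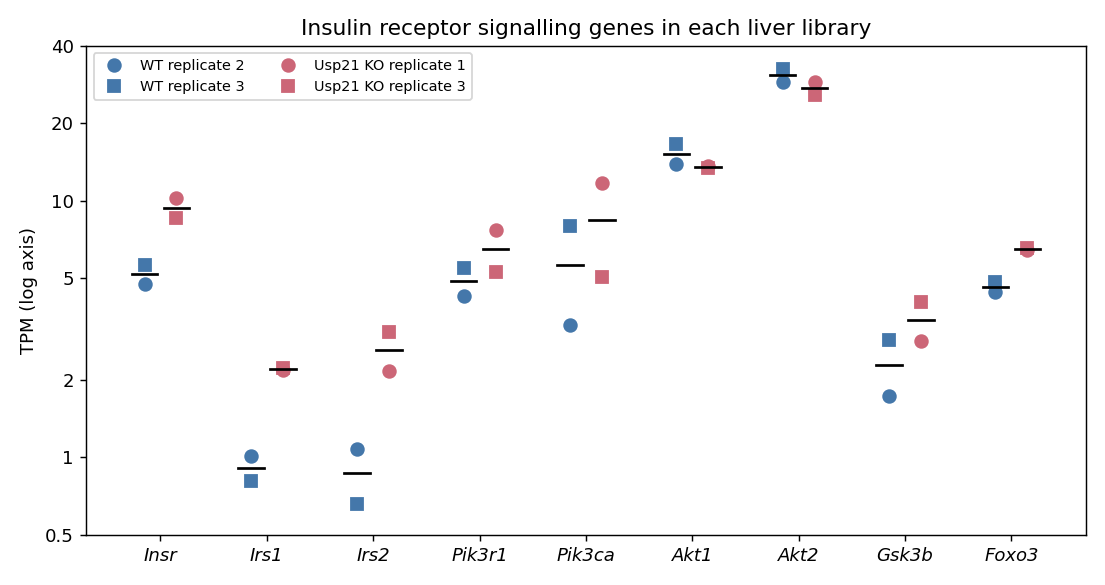
Each point is the TPM of 1 gene in 1 liver library (log axis), with WT in blue, *Usp21* KO in red, and a black bar at the mean of each genotype. The KO points of *Insr*, *Irs1*, *Irs2* and *Foxo3* sit above both WT points, whereas those of *Akt2* and *Pik3ca* mix with them.

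Markers of other cell types also differed between the genotypes in places. The 6 stellate cell markers summed to 45.5 to 54.6 TPM in WT and 63.4 to 84.1 TPM in KO, and the 5 cholangiocyte markers to 14.6 to 15.9 TPM in WT and 24.5 to 37.9 TPM in KO, with no marker of either list at 0 in all libraries. Of 5 stellate cell markers that passed the filter, 2 were higher in both KO livers than in both WT livers. This was so for 1 of 2 cholangiocyte markers that passed, and for 34.4% of all tested genes. A sum is carried by its most abundant markers. The summed levels of Kupffer cell markers (145 to 166 TPM in WT, 78.3 to 203 TPM in KO) and sinusoidal endothelial markers (34.4 to 43.9 and 37.2 to 53.3 TPM) overlapped. Neutrophil markers reached 43.1 TPM in WT replicate 3 and at most 4.16 TPM in the other libraries. The 4 adipocyte markers summed to at most 0.822 TPM, with *Lep* and *Plin1* at 0. The 4 pancreas markers summed to 30.7 to 42.2 TPM in WT and 28.7 to 30.6 TPM in KO, with *Prss2*, *Cpa1* and *Ins2* at 0. In bulk tissue fewer cells of a type and less RNA per cell cannot be told apart, and the part of these cells in the differences of *Insr*, *Irs1*, *Irs2* and *Foxo3* was not tested.

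*Insr* (ENSMUSG00000005534, chr8:3122061-3279617 on GRCm38, reverse strand) encodes the insulin receptor, a receptor tyrosine kinase. WT replicate 2 was at 4.73 TPM, WT replicate 3 at 5.60 TPM, KO replicate 1 at 10.2 TPM and KO replicate 3 at 8.56 TPM, and values of other genes follow in this order. The means were 5.17 ± 0.616 TPM in WT and 9.38 ± 1.17 TPM in KO (SD, n = 2 each), and the genotypes did not overlap. The log2 fold change was 0.75 (standard error 0.23, 95% interval 0.19 to 1.31), with an unadjusted p of 0.0178 and an adjusted p of 0.464 in limma. Leaving out each library in turn kept it between 0.64 and 0.87. Of the 31-base stretches of its transcripts, 0.409% also occur in other genes.

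*Irs2* (ENSMUSG00000038894, chr8:10984681-11008458, reverse strand) is the adaptor whose transcription follows fasting and feeding. It stood at 1.08 and 0.656 TPM (WT) and at 2.16 and 3.09 TPM (KO), so that the lower KO library was still above the higher WT library. The means were 0.868 ± 0.300 and 2.62 ± 0.656 TPM (SD, n = 2 each). Its log2 fold change of 0.95 (standard error 0.29, 95% interval 0.23 to 1.68) exceeded that of 96.8% of the tested genes, with an unadjusted p of 0.0186 and an adjusted p of 0.464 in limma. Since *Irs2* was so low, the size of this value rests on the pseudocount: it was 1.51 when 0.1 was added to the TPM before the logarithm and 0.38 when 5 was added. *Irs2* also passed the filter only through the KO libraries, so its rank and p among the tested genes are no support for a difference. The direction was the same under every alternative run, with adjusted p between 0.403 and 0.817. Of its 31-base stretches, 2.10% lie on the opposite strand of *9530052E02Rik*, whose identifier has no entry among the salmon values.

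*Irs1* (ENSMUSG00000055980, chr1:82233101-82291416, reverse strand) encodes the other hepatic IRS adaptor, which is not known as a fasting gene. It was at 1.01 and 0.806 TPM in the WT livers, against 2.19 and 2.22 TPM in the KO livers. The KO libraries were almost equal, and both were above WT. The log2 fold change was 0.75 (standard error 0.26, 95% interval 0.11 to 1.39), with an unadjusted p of 0.0284 and an adjusted p of 0.464 in limma. Adding 0.1 or 5 in place of 1 gave 1.20 and 0.29. *Irs1* too passed the filter only through the KO libraries, so its p is no support for a difference. Of the 31-base stretches of its transcript, 30.6% lie on the opposite strand of the overlapping gene *Gm9747*, whose identifier has no entry among the salmon values. The strand setting of salmon is not given, so reads of the 2 genes may not have been told apart.

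*Irs2* was compared with *Irs1* directly, since of these adaptors *Irs2* is the one known to rise in fasting. The difference between their log2 fold changes, 0.20, lay within the spread between libraries. *Irs2* was present at 1.07 and 0.814 copies per copy of *Irs1* in the WT libraries and at 0.987 and 1.39 in the KO libraries. KO replicate 1 lay between the WT libraries in this ratio and KO replicate 3 above them. On log2(TPM + 1) the ratio was 0.17 ± 0.25 in KO and -0.037 ± 0.12 in WT (SD, n = 2 each, exact permutation test, two-sided p = 0.667). Summed, the adaptors stood at 2.09 and 1.46 TPM (WT) and at 4.35 and 5.31 TPM (KO), so that the sum was higher in each KO library than in either WT library. TPM is a share of a library and gives no amount of mRNA per liver. Both genes also passed the filter only through the KO libraries. With 2 libraries against 2, such an exact permutation test cannot give a p under 0.33.

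The proximal promoters of the IRS genes are shown because they share a feature that the choice of genes did not use. In the RefSeq promoter table (build GRCm38.p6, 250 bases before to 50 after each start site, 32851 entries), 8 of the 9 members had an entry, 13 entries in all. *Insr* was the member without a match. Both strands were searched for CAAAACA (reverse TGTTTTG, the core of insulin response elements, which FOXO factors bind), CACGTG (an E-box, bound by basic helix-loop-helix factors), GTAAACA (the FOXO consensus core), AAACA (a shorter forkhead core that both contain), TGACG (part of a CREB site) and GATAA. Among these 8 members, the insulin response core and the E-box were found in the promoters of *Irs1* and *Irs2* only, and in both genes they lay side by side. In the stretches below, read 5′ to 3′ on the reverse strand, capitals mark both motifs:
*Irs2*, chr8:11008936-11008995: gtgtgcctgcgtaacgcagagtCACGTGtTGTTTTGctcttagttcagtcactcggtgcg
*Irs1*, chr1:82291517-82291576: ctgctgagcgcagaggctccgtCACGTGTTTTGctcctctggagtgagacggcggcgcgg
*Irs4*, chrX:141725334-141725393: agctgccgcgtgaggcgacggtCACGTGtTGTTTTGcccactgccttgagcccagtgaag

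The E-box began 44 bases before the RefSeq start site in *Irs2*, 115 bases in *Irs1* and 154 bases in *Irs4*. In the gene coordinates given above *Irs2* starts at 11008458, outside its RefSeq promoter entry (chr8:11008880-11009179). From that start its motifs would lie farther away. The insulin response core began 7 bases after the first base of the E-box in *Irs2* and *Irs4*, and 4 bases after it in *Irs1*, where the motifs overlap. *Irs1* held another copy of the core 32 bases before its start site. In the whole promoter table the core was found in 6.28% of entries and the E-box in 7.15%, and both, starting within 20 bases of each other, in 19 entries (0.0578%), which belong to 16 of 27025 genes, 3 of them *Irs1*, *Irs2* and *Irs4*. The 20-base limit was set after the sequences had been seen. *Irs4* is shown for its sequence alone, as it was at 0 TPM in all 4 libraries. The FOXO consensus core, present in 3.65% of entries, was found among the members in 1 *Akt1* promoter. The partial CREB site (20.8% of entries) was found in promoters of *Irs1*, *Foxo3*, *Akt2* and *Pik3r1*, the GATAA motif (25.4%) in those of *Akt1*, *Akt2* and *Pik3r1*, and the shorter forkhead core (50.5%) in those of *Irs1*, *Irs2*, *Pik3ca*, *Akt1* and *Akt2*. A match of letters is a description of the sequence and shows no binding.

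*Pik3r1* (ENSMUSG00000041417, chr13:101680563-101768217, reverse strand) encodes the regulatory subunit of PI3K that docks on phosphorylated IRS proteins. It was at 4.24 and 5.45 TPM in the WT livers, against 7.68 and 5.26 TPM in the KO livers, and KO replicate 3 lay between the WT libraries. Its log2 fold change was 0.34 (95% interval -0.34 to 1.02, adjusted p = 0.646 in limma). *Pik3ca* (ENSMUSG00000027665, chr3:32397671-32468486, forward strand) encodes the catalytic subunit and was the most variable member. It stood at 3.27 and 7.94 TPM (WT) and at 11.8 and 5.06 TPM (KO), so that each genotype had 1 low and 1 high library. The log2 fold change of *Pik3ca* was 0.51 (95% interval -0.73 to 1.75, adjusted p = 0.707 in limma). It changed sign to -0.028 without KO replicate 1 and to -0.024 without WT replicate 2, and reached 1.05 without KO replicate 3 and 1.04 without WT replicate 3. *Pik3r1* moved in the same way, to 0.11 without KO replicate 1 and 0.58 without KO replicate 3. *Pik3r1* made up 56.5% and 40.7% of the summed TPM of both subunits in WT and 39.5% and 51.0% in KO, with overlapping genotypes (difference in log2 ratio -0.17, exact permutation test, two-sided p = 0.667).

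The AKT kinases were the most abundant members, and on the deposited scale their log2 fold changes were the nearest to 0. With TMM factors they were -0.32 and -0.33, farther from 0 than those of *Pik3r1* (0.20) and *Foxo3* (0.28). *Akt2* (ENSMUSG00000004056, chr7:27591552-27640826, forward strand), the isoform known for insulin action in liver, was at 29.0 and 32.6 TPM in the WT livers, against 29.1 and 25.7 TPM in the KO livers. KO replicate 1 and WT replicate 2 were almost equal, and the genotypes overlapped. The log2 fold change of *Akt2* was -0.17 (standard error 0.18, 95% interval -0.62 to 0.28, adjusted p = 0.740 in limma). *Akt1* (ENSMUSG00000001729, chr12:112653821-112674884, reverse strand) stood at 13.8 and 16.6 TPM (WT) and at 13.6 and 13.3 TPM (KO). The KO livers were the lower ones, with WT replicate 2 close to them, and the log2 fold change was -0.16 (standard error 0.20, 95% interval -0.65 to 0.33, adjusted p = 0.770 in limma). Without WT replicate 3 it was -0.039. *Akt2* made up between 65.9% and 68.1% of the summed TPM of both kinases in every library, and the log2 ratio of *Akt2* to *Akt1* was 0.98 ± 0.056 in WT and 0.97 ± 0.10 in KO (SD, n = 2 each). Of the 31-base stretches of *Akt2*, 13.3% also occur in the pseudogene *Akt2-ps*, which salmon listed at 0 in all 4 libraries.

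*Gsk3b* (ENSMUSG00000022812, chr16:38089001-38246084, forward strand), a kinase that AKT inhibits, was at 1.74 and 2.86 TPM in the WT livers, against 2.85 and 4.01 TPM in the KO livers. WT replicate 3 and KO replicate 1 were almost equal, and they carried the overlap. Its log2 fold change was 0.43 (standard error 0.30, 95% interval -0.32 to 1.18, adjusted p = 0.604 in limma), and it ran from 0.19 (WT replicate 2 left out) to 0.68 (WT replicate 3 left out). *Foxo3* (ENSMUSG00000048756, chr10:42181841-42276755, reverse strand), one of the forkhead factors that AKT keeps out of the nucleus, stood at 4.41 and 4.81 TPM (WT) and at 6.41 and 6.53 TPM (KO). The spread within each genotype was small (4.61 ± 0.284 and 6.47 ± 0.0829 TPM, SD, n = 2 each), and the genotypes were apart. The log2 fold change of *Foxo3* was 0.42 (standard error 0.22, 95% interval -0.13 to 0.96, unadjusted p = 0.108, adjusted p = 0.517 in limma), and leaving out each library kept it between 0.36 and 0.47.

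**Figure D2:**
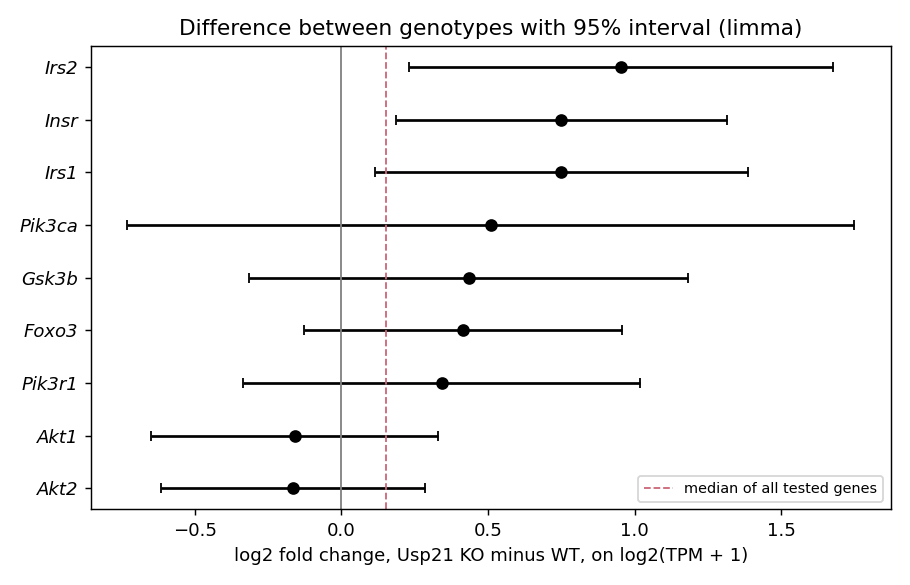
Points show the log2 fold change of each gene (*Usp21* KO minus WT, on log2(TPM + 1)) with its 95% interval from limma, and the dashed line marks the median of all tested genes at 0.15. The intervals of *Irs2*, *Insr* and *Irs1* lie above 0, and that of *Irs1* crosses the dashed line.

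On this scale 0 of the 9 genes differed by at least 2-fold, compared with 2.59% of all tested genes that were at least 2-fold higher in KO. By the ratio of mean TPM, without a pseudocount, *Irs2* and *Irs1* exceeded 2-fold. The median log2 fold change of the 9 genes was 0.43, against 0.15 for all tested genes. Rescaling the libraries with TMM factors brought the median of all genes from 0.15 to 0.0082, and the log2 fold changes of *Irs2*, *Irs1* and *Insr* to 0.86, 0.65 and 0.60, with the genotypes still apart for all 3. After this scaling 4 members were apart and higher in KO and 2 (*Akt1* and *Akt2*) apart and lower, compared with 22.4% and 21% of all tested genes. The upward count again includes *Irs1* and *Irs2*, which passed the filter only through the KO libraries, and has the same limit. Fewer members had an unadjusted p under 0.05 when 1 library was left out: 1 without WT replicate 2 (*Irs2*), 1 without WT replicate 3 (*Insr*), and 2 when either KO library was left out (*Irs1* with *Irs2* or with *Insr*). Without the moderation of variances across genes the count was again 3, but *Irs2* was no longer among them (unadjusted p = 0.0616 in limma) and *Foxo3* was (unadjusted p = 0.0158).

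Log2 ratios of TPM + 1 within a library set the adaptors and the receptor against the kinases. The log2 ratio of *Irs2* to *Akt2* was -3.85 and -4.34 in the WT libraries and -3.25 and -2.71 in the KO libraries, a difference of 1.12 between genotypes. Against *Akt1* this difference was 1.11, and against *Gsk3b* it was 0.52. For *Insr* to *Akt2* the log2 ratio was -2.39 and -2.35 in WT and -1.42 and -1.48 in KO, a difference of 0.92. In each of these 4 ratios both KO livers were above both WT livers. Of 7 ratios compared, these 4, of which the values were seen before they were chosen, had the smallest p that the design allows (exact permutation test, two-sided p = 0.33, Benjamini-Hochberg adjusted 0.583). *Irs2* passed the filter only through the KO libraries, so the separation of its ratios is no support for a difference. The size of the differences in these *Irs2* ratios also rests on the pseudocount.

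**Figure D3:**
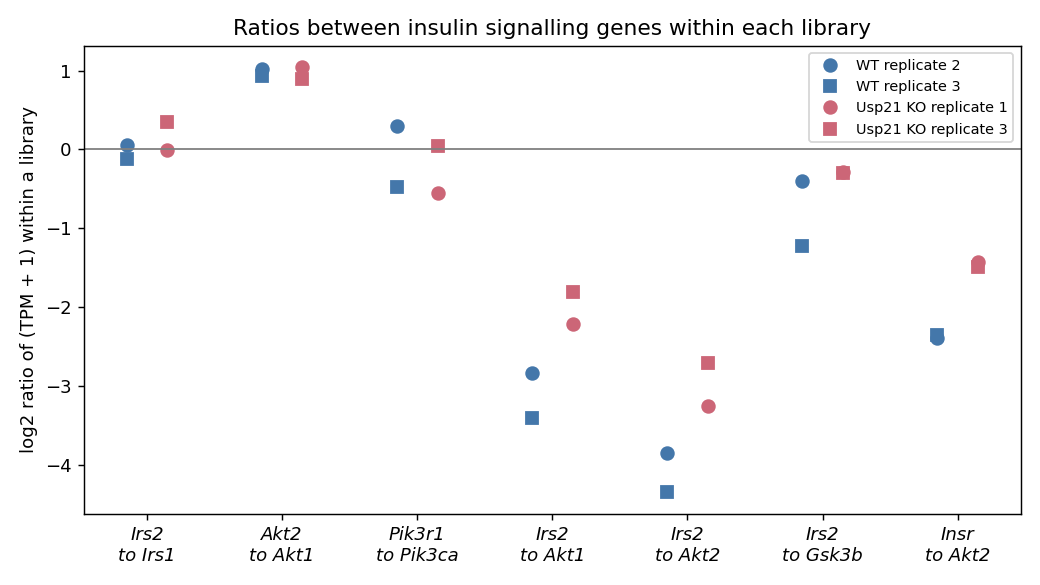
Each point is the log2 ratio of (TPM + 1) of a pair of genes within 1 library, with WT in blue and *Usp21* KO in red. *Irs2* to *Irs1* and *Akt2* to *Akt1* overlap between genotypes, while *Irs2* and *Insr* against the AKT kinases are higher in both KO livers.

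By mean TPM over the 4 libraries the order was *Akt2* (29.1), *Akt1* (14.3), *Insr* (7.28), *Pik3ca* (7.01), *Pik3r1* (5.66), *Foxo3* (5.54), *Gsk3b* (2.86), *Irs2* (1.75) and *Irs1* (1.56). *Akt2* exceeded *Akt1*, *Akt1* exceeded *Insr*, and *Foxo3* exceeded *Gsk3b* in each of the 4 libraries, with ranges that did not overlap. *Insr* was above *Pik3r1* and *Foxo3* in each library, although the ranges overlapped. *Pik3ca* could not be placed against *Insr*, *Pik3r1* or *Foxo3*, nor *Pik3r1* against *Foxo3*, nor *Irs2* against *Irs1*, since each was the higher of its pair in 2 of 4 libraries. *Gsk3b* was above *Irs2* in each library, although their ranges overlapped. The adaptors were thus among the lowest mRNAs tested, with *Irs1* above 9.79% and *Irs2* above 12.6% of the tested genes in mean TPM.

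**Figure D4:**
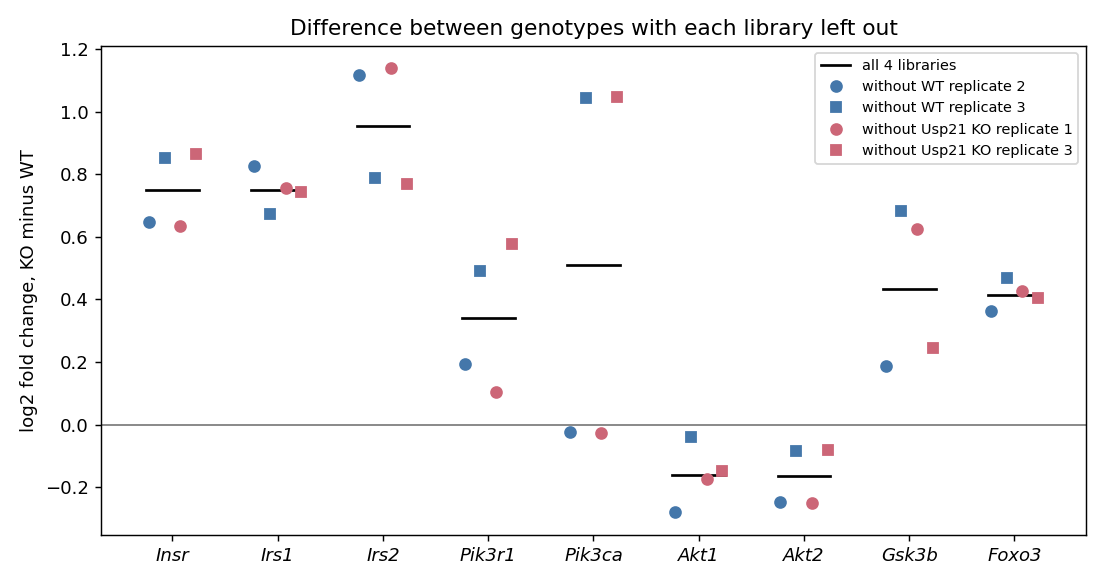
Black bars show the log2 fold change of each gene (*Usp21* KO minus WT) with all 4 libraries, and points show it with 1 library left out. *Insr*, *Irs1*, *Irs2* and *Foxo3* stay above 0.36, *Akt1* and *Akt2* stay below 0, and *Pik3ca* runs from -0.028 to 1.05.

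The profile of *Irs2* over the 4 libraries was also set against the 4025 genes that averaged 10 TPM or more, by the root mean square distance between log2(TPM + 1) values centred on each gene's mean. The nearest genes were *Syvn1*, an endoplasmic reticulum ubiquitin ligase, *Cyp7b1*, an oxysterol hydroxylase, *Arl4d*, *Hsdl2*, and *Plin2*, a coat protein of lipid droplets. Their distances were 0.0728 to 0.110. *Cyp7b1* was at 100.1 and 70.3 TPM in the WT livers, against 149 and 174 TPM in the KO livers, and *Plin2* stood at 118.9 and 88.7 TPM (WT) and at 178.5 and 271 TPM (KO). With 4 libraries many genes share such an order of values, and the list is a description. The 1 added to the TPM also shrinks the differences of *Irs2*, at 0.656 to 3.09 TPM, more than those of these abundant genes. A short distance therefore does not mean an equal fold change in TPM, and other pseudocounts were not tested here. Among the members *Irs1* was nearest to *Irs2* (0.173), followed by *Insr* (0.302) and *Foxo3* (0.33).

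Other genes of the pathway were taken from lists written by role, 64 genes without the 9 members, of which 46 passed the filter. Of these 46, 25 were higher and 21 lower in KO, and the median log2 fold change was 0.084, below that of all tested genes. With TMM factors 21 were higher and 25 lower, with a median of -0.056. An unadjusted p under 0.05 was found for 8 genes (17.4%), all higher in KO, where 8.45% of all tested genes were so, and an adjusted p under 0.05 in limma for 0 genes. *Inpp4a*, among these 8, passed the filter only through the KO libraries. The genotypes were apart for 19 of the 46 genes (41.3%) in the upward direction and for 1 in the downward direction, against 34.4% and 10.9% of all tested genes. With TMM factors these counts were 14 (30.4%) and 6 (13.0%), against 22.4% and 21%, and with upper quartile scaling 14 and 5.

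Both other FOXO factors that were expressed had an unadjusted p under 0.05 and were higher in KO, as were 8.45% of all tested genes. *Foxo1*, the main FOXO factor of glucose production, was at 3.55 and 4.95 TPM in the WT livers, against 6.47 and 7.74 TPM in the KO livers (log2 fold change 0.63, unadjusted p = 0.0491, adjusted p = 0.473 in limma). *Foxo4* stood at 5.18 and 5.50 TPM (WT) and at 9.32 and 7.56 TPM (KO) (log2 fold change 0.57, unadjusted p = 0.0471, adjusted p = 0.472 in limma). With *Foxo3*, each of the 3 FOXO genes that passed the filter was higher in both KO livers than in both WT livers. This was so for 34.4% of all tested genes. The 3 genes were also apart with TMM factors (22.4% of all tested genes) and with upper quartile scaling (24.5%).

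Among 16 inhibitors of the pathway 10 were higher and 6 lower in KO, and 8 and 8 with TMM factors. Of all tested genes 66.7% were higher, and 51.0% with TMM factors. Of the 16, 3 (18.75%) had an unadjusted p under 0.05 and were higher in KO, compared with 8.45% of all tested genes. Among the 3 were *Inpp4a* and *Grb14*. *Grb14*, an adaptor that blocks the catalytic activity of the insulin receptor, was at 20.3 and 29.6 TPM in the WT livers, against 44.8 and 35.5 TPM in the KO livers (log2 fold change 0.68, adjusted p = 0.464 in limma). *Inpp4a*, a phosphatase of a later phosphoinositide, had the highest value of the list at 0.93, with 0.280 and 0.509 TPM in WT against 2.15 and 1.22 TPM in KO. It passed the filter only through the KO libraries, so its place in the count of 3 is no support for a difference. *Socs3*, a feedback inhibitor of receptor signalling, had the lowest value of the list at -0.87, at 1.80 and 15.0 TPM (WT) and 4.72 and 1.33 TPM (KO), so that WT replicate 3 alone stood apart.

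Among 10 kinases that act after PI3K 5 were higher and 5 lower in KO, and 3 and 7 with TMM factors. Higher in KO were 66.7% of all tested genes, and 51.0% with TMM factors. *Pdpk1*, which phosphorylates AKT in its activation loop, was at 2.25 and 1.80 TPM in the WT livers, against 3.71 and 3.93 TPM in the KO livers (log2 fold change 0.68, unadjusted p = 0.0355, adjusted p = 0.464 in limma). *Rps6kb2* had the lowest value at -0.31, with overlapping genotypes. The 2 other expressed PI3K subunits, *Pik3cb* and *Pik3r2*, had log2 fold changes of -0.15 and -0.16, also with overlap. Of 5 receptors and adaptors, *Sos1* had the highest value (0.39) and *Grb2* the lowest (-0.056).

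In the mTORC1 group 5 of 11 genes were higher in KO (45.5%, against 66.7% of all tested genes), with a median log2 fold change of -0.024. With TMM factors 5 were higher (against 51.0% of all tested genes), with a median of -0.14. *Tsc1* and *Sesn3*, which restrain mTORC1, had an unadjusted p under 0.05 and were higher in KO (18.2% of the group, against 8.45% of all tested genes). *Tsc1* stood at 1.51 and 1.12 TPM (WT) and at 3.20 and 2.53 TPM (KO) (log2 fold change 0.74), and *Sesn3* was at 1.05 and 1.29 TPM in the WT livers, against 2.67 and 2.23 TPM in the KO livers (0.67). The lowest value was that of *Ddit4* (-0.12), whose genotypes overlapped.

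**Figure D5:**
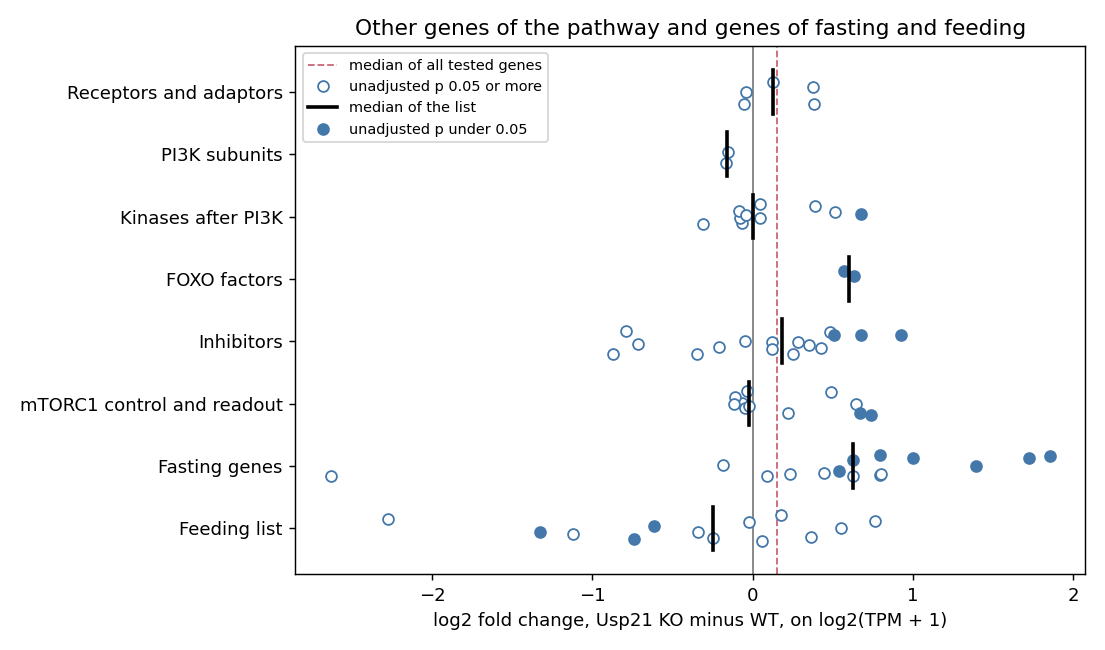
Each circle is the log2 fold change of 1 gene that passed the filter (*Usp21* KO minus WT), by list, filled where the unadjusted p was under 0.05. Black bars mark list medians, and the dashed line marks the median of all tested genes at 0.15. The fasting list lies mainly to the right, with *Cyp4a14* far to the left.

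The same comparison was made for genes that fasting or insulin is known to control. In the fasting list 13 of 15 tested genes were higher in KO, 7 of them with an unadjusted p under 0.05, and the median log2 fold change was 0.63. These are 86.7% and 46.7% of the list, against 66.7% and 8.45% of all tested genes. With TMM factors 12 were higher (80%, against 51.0% of all tested genes), with a median of 0.47. The 7 were *G6pc1*, *Lpin1*, *Igfbp1*, *Pdk4*, *Tat*, *Klf15* and *Cpt1a*. *Pdk4*, and *Ppargc1a* among the others counted as higher, passed the filter only through the KO libraries. The study had already reported *Lpin1* and *Ppargc1a* as upregulated in KO livers from these data, and *Ppargc1a* also by RT-qPCR. The shares of this list are therefore no support for a difference. *G6pc1*, the catalytic subunit of glucose 6-phosphatase, stood at 22.4 and 31.6 TPM (WT) and at 56.4 and 172.8 TPM (KO) (log2 fold change 1.85, adjusted p = 0.464 in limma). *Igfbp1*, a secreted protein whose gene insulin represses through FOXO1, was at 6.28 and 18.4 TPM in the WT livers, against 21.5 and 42.3 TPM in the KO livers (1.39, adjusted p = 0.472). *Cyp4a14*, a fatty acid hydroxylase that PPAR-alpha induces, went against the list at -2.63, with 356 TPM in WT replicate 2 and 21.6 TPM in WT replicate 3 against 8.76 and 20.7 TPM in KO.

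A feeding list held 13 tested genes, of which insulin or feeding is known to induce all but *Pnpla2*, a triglyceride lipase that fasting induces. Without *Pnpla2*, which was left out after its value had been seen, 8 were lower and 4 higher in KO (median -0.29), also with TMM factors (median -0.44). With it the medians were -0.24 and -0.41. The 3 with an unadjusted p under 0.05 were *Srebf1*, *Pklr* and *Tkfc*, all lower in KO, as were 2.04% of all tested genes. *Srebf1*, which encodes the lipogenic transcription factor SREBP-1, stood at 58.1 and 64.3 TPM (WT) and at 27.3 and 20.7 TPM (KO) (log2 fold change -1.32, adjusted p = 0.242 in limma). *Pklr*, the liver pyruvate kinase, was at 33.8 and 48.2 TPM in the WT livers, against 19.2 and 29.5 TPM in the KO livers (-0.74, adjusted p = 0.472). The lowest value was that of *Thrsp* (-2.27), at 75.0 and 611 TPM (WT) and 51.9 and 36.7 TPM (KO), and the highest that of *Scd1* (0.76), with overlapping genotypes. *Thrsp* and *Socs3*, like the neutrophil markers, were highest in WT replicate 3.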

How the data were processed

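Liver RNA of 2 WT and 2 *Usp21* KO mice was sequenced on an Illumina MiSeq. The authors deposited TPM per gene from salmon, for a transcriptome named mm10, and TMM-normalized CPM from HTSeq counts on mm10 alignments, a count-based signal, in 4 tables, of which the 2 log2 forms were not used. Versions, annotation release and strand settings are not given in the sources used here.

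In the deposited CPM signal 100% of values were whole multiples of 1 read (tolerance 0.02), giving 102898 to 148164 reads per library. All 9 members were at 0 there, as were 428 of 682 genes whose TPM was 100 or more throughout, so TPM was analysed. Genes averaging 1 TPM or more were fitted with limma 3.58.1 (R 4.3.3) on log2(TPM + 1), variances moderated with a trend (prior degrees of freedom 3.62), two-sided, and ratios by exact permutation tests (scipy 1.17.1). edgeR 4.0.16 called 7 and DESeq2 1.42.0 called 1 of 2414 genes on the recovered reads. In data simulated on the 9581 genes, limma recovered 76% of 200 genes shifted by 3 log2 units and 0% of 200 shifted by 1.

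Members and gene lists were chosen with earlier results of these data known. Genes named besides the 9 members are those with the highest and lowest log2 fold change of each list, those with an unadjusted p under 0.05, and the 5 genes nearest to *Irs2*. A gene that this rule names is not reported here. *Usp21*, *Irs4*, *Pnpla2*, *Ppargc1a*, markers at 0 and genes that share sequence with a member are named outside this rule, chosen after their values were seen. Coordinates and shared 31-base stretches come from GENCODE M21 (GRCm38), which held 35126 of 35739 TPM identifiers. Alternatives comprised other pseudocounts (0.1, 5), a filter at a mean of 5 TPM or none, upper quartile scaling, TMM factors, unmoderated and trend-free variances, the CPM table, and each library left out.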

Additional observations from a re-analysis of the deposited data

How the results depend on the processing

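No paired analysis was made. The labels do not say which mice shared a litter or whether equal numbers mark a pair, and only 1 number occurs in both genotypes. Each of the 9 members kept the sign of its log2 fold change under every alternative that could test it, except *Pik3ca*, which was -0.028 without KO replicate 1 and -0.024 without WT replicate 2, within a range of -0.028 to 1.05. No alternative gave a member an adjusted p under 0.05. *Irs2* ranged from 0.77 to 1.14 with each library left out, and the *Irs2* to *Irs1* log2 ratio from 0.024 to 0.38. A mean of at least 5 TPM left 6 members, without *Irs1*, *Irs2* and *Gsk3b*, of which 1 had an unadjusted p under 0.05 and 2 were higher in KO without overlap. With each library left out these counts were 1 to 2 and 4 to 7. They were counted under the alternatives after seeing the data. Small differences in the ratio of *Akt2* to *Akt1* (0.034 without WT replicate 2, 0.066 without KO replicate 3, range -0.078 to 0.066) and of *Pik3r1* to *Pik3ca* (0.22 without WT replicate 2, 0.13 without KO replicate 1, range -0.55 to 0.22) changed sign. The median of the other pathway genes was -0.056 with TMM factors and 0.084 to 0.21 with a library left out. It was -0.34 over the 13 of them in the CPM table, and -0.38 in edgeR and -0.39 in DESeq2 over the 6 with enough recovered reads, where the cause was not tested beyond the smaller number of genes. The CPM table, edgeR and DESeq2 could give no value for the members. TPM keeps no depth, so counting error cannot be given, and the 2 libraries per genotype limit the precision.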
